A study of Mus musculus with 2 samples.

Results

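The mouse genome holds 3 genes of the miR-26 family of microRNAs (miRNAs), Mir26b, Mir26a-2 and Mir26a-1, each inside an intron of a Ctdsp phosphatase gene. They were found by their Ensembl identifiers in the tables of 1973 miRNA genes, and all 3 had at least 10 counts in every library. The libraries held RNA shorter than 30 bases from the neural tube of newborn mice of strain B6NCrl (postnatal day 0), 1 library from a single neural tube of pup 2 and 1 from that of pup 1. The pups were littermates of 1 dam, and the labels name no treatment and no allele, so there was 1 group and no comparison between conditions. Sex was not collected.

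The Ctdsp genes encode small phosphatases that act on the tail of RNA polymerase II and work with the repressor REST, which silences neuronal genes in cells that are not neurons. The miR-26 miRNAs are made from the introns of these same genes. In zebrafish, miR-26b is known to repress ctdsp2, the transcript that hosts a gene of its own family, during the formation of neurons. A miRNA finds its targets mainly through its seed, bases 2 to 8 counted from the 5′ end.

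The mature sequences are shown because they decide which reads can be placed on which gene. The seed is in capitals, and the sequences are those of RefSeq on build GRCm38.p6.

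mmu-miR-26b-5p: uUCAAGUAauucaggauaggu

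mmu-miR-26a-5p: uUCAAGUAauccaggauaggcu

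mmu-miR-26b-3p: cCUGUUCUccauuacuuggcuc

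mmu-miR-26a-2-3p: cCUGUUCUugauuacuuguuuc

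mmu-miR-26a-1-3p: cCUAUUCUugguuacuugcacg

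Both 5p miRNAs had the seed UCAAGUA, which no other of the 1679 mature miRNA names in the RefSeq table carried. Counted from 1 at the 5′ end of miR-26a-5p, miR-26b-5p differed from it by the substitutions C11U and C21U and was a base shorter, 21 against 22 bases. The Mir26a-2 and Mir26a-1 genes carry the very same miR-26a-5p. Their 3p arms differed at 6 of 22 positions, by A4G, G11A, C19U, A20U, C21U and G22C from miR-26a-1-3p to miR-26a-2-3p. The first of these lies in the seed, so the 3p seed was CUAUUCU for miR-26a-1 and CUGUUCU for miR-26a-2 and miR-26b, a seed also found in miR-6932-3p and miR-7039-3p.

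The whole precursors show where the sharing stops. The mature arms are in capitals, 5p before 3p.

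Mir26b: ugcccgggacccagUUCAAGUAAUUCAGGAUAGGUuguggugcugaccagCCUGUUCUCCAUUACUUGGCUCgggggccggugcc

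Mir26a-2: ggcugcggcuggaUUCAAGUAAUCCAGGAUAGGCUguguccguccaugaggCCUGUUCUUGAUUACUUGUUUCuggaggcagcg

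Mir26a-1: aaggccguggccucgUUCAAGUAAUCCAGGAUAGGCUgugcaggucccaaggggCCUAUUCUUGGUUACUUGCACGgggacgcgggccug

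The precursors were 85, 84 and 90 bases long. Mir26a-1 and Mir26a-2 shared a run of 25 identical bases, which began at the first base of miR-26a-5p and ended 3 bases after it. Of the windows of 22 bases in a precursor, 4 of 63 in Mir26a-2 and 4 of 69 in Mir26a-1 also occurred in the other gene, and all 4 lay in this run. None of the 64 windows of Mir26b occurred in another annotated miRNA gene, and its longest run shared with Mir26a-1 was 11 bases. Each 3p arm and miR-26b-5p matched the transcript of its own gene and no other GENCODE transcript, whereas miR-26a-5p matched those of both Mir26a genes. No genome sequence was used here, so matches outside annotated transcripts were not searched. Precursor identity over the alignment was 72.5% between the Mir26a genes, 68.8% between Mir26b and Mir26a-1, and 66.0% between Mir26b and Mir26a-2.

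**Figure D1:**
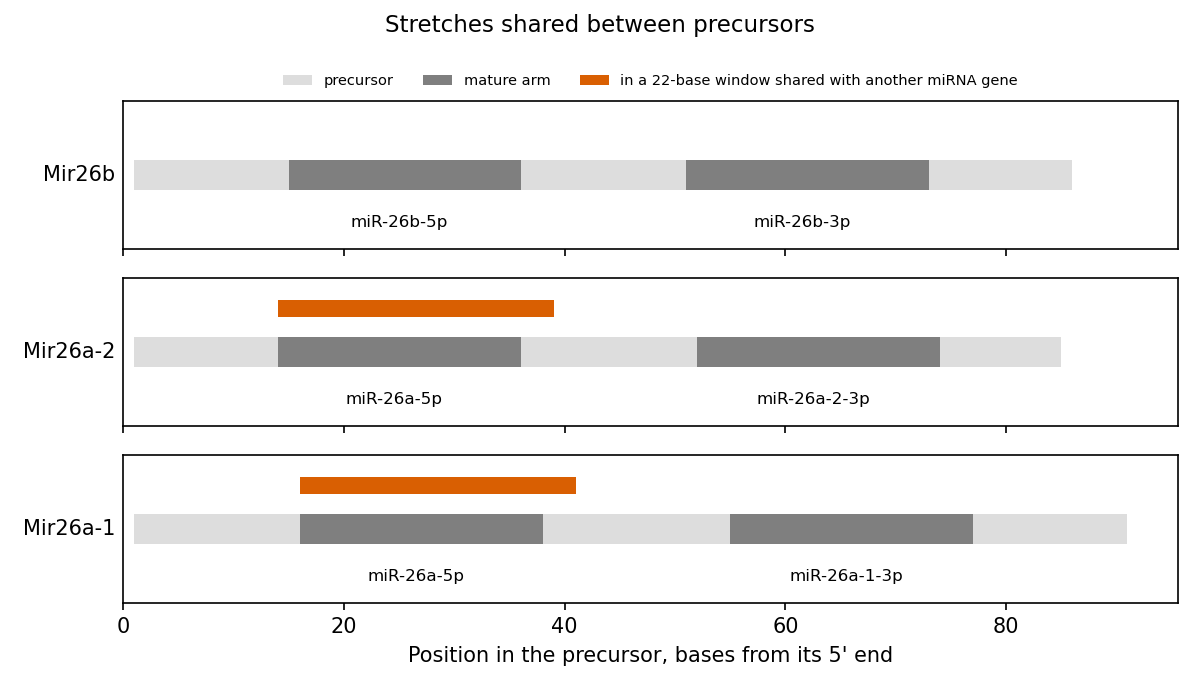
Each row is the precursor of 1 miR-26 gene (pale grey) with its mature arms (dark grey), against the position in bases from the 5′ end. The orange bar marks the bases covered by 22-base windows that also occur in another miRNA gene. It covers the whole of miR-26a-5p in Mir26a-2 and Mir26a-1 and is absent from Mir26b.

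The folded precursors had similar predicted energies. The minimum free energy computed with RNAfold was -43.5 kcal/mol for Mir26b, -44.5 kcal/mol for Mir26a-2 and -49.4 kcal/mol for Mir26a-1. Per base, 12.0%, 9.7% and 7.6% of the 1894 precursors with a sequence were at least as stable as these. The share of G and C was 58.8%, 53.6% and 60.0%.

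The genes lay at the same place of their hosts (GENCODE M21 annotation, mm10). Mir26b lay on chromosome 1 (74394310 to 74394394, plus strand) in intron 4 of Ctdsp1, Mir26a-2 on chromosome 10 (126995530 to 126995613, plus strand) in intron 5 of Ctdsp2, and Mir26a-1 on chromosome 9 (119031796 to 119031885, plus strand) in intron 5 of Ctdspl. These numbers are those of the first listed coding transcript, and each gene was on its host's strand. In every annotated transcript that spans a miR-26 gene, the exon before it was 57 bases long and the exon after it 93 bases. The introns themselves measured 564 bases in Ctdsp1, 1946 bases in Ctdsp2 and 3283 bases in Ctdspl. Mir26b ended 245 bases and Mir26a-2 241 bases before the next exon, and Mir26a-1 1650 bases before it. The hosts' own transcripts are longer than the RNA in these libraries and were not measured.

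**Figure D2:**
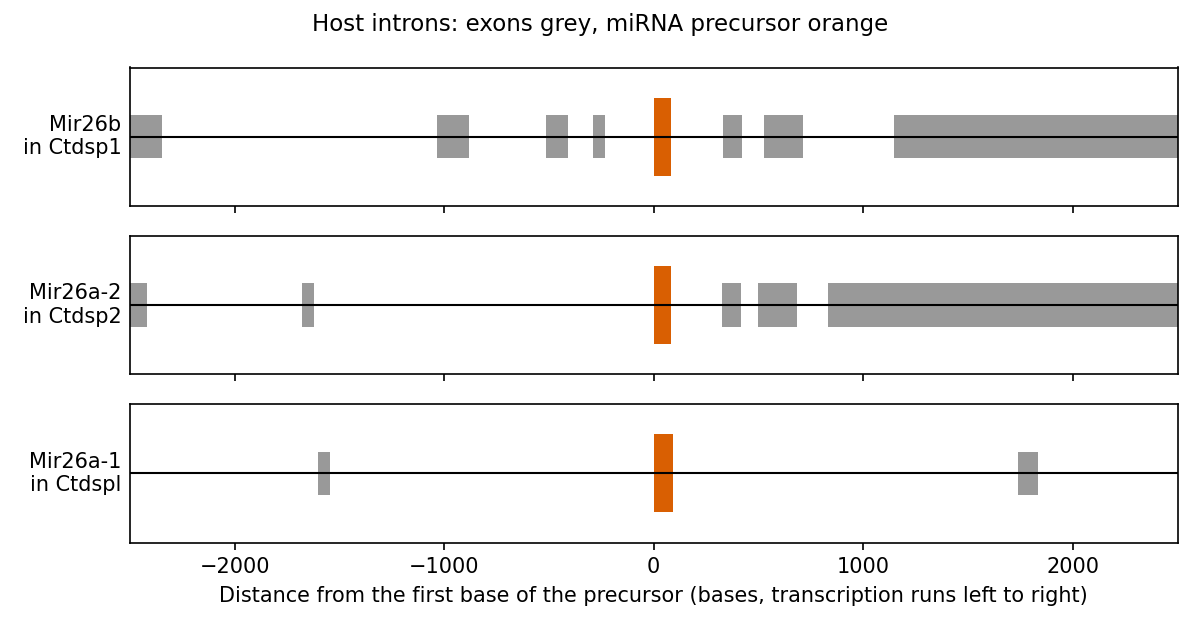
Each row shows the host gene around 1 miR-26 precursor (orange), with exons in grey, against the distance in bases from the first base of the precursor. Each precursor lies between an exon of 57 bases and one of 93 bases, in introns of 564, 1946 and 3283 bases from top to bottom.

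The libraries held 3660693 own-strand counts in pup 2 and 3216453 in pup 1, which are counts of reads placed on a miRNA gene in its own direction. Levels are given as CPM, counts scaled to a total of 1000000. A count of 0 allows up to 3 counts, or 0.820 CPM (pup 2) and 0.933 CPM (pup 1). Reads that fitted several places were kept apart by the authors' tables and belong to no gene. They numbered 2555735 in pup 2 and 2268506 in pup 1, or 35.4% and 35.7% of all reads. A read that lies within miR-26a-5p fits both Mir26a genes alike, so the counts of these genes are those of uniquely placed reads and do not measure miR-26a-5p. How many of the reads that fitted several places were miR-26a-5p is not analysed here.

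Mir26b, the source of miR-26b, held nearly all the uniquely placed counts of the family. It had 53668 counts in pup 2 and 41031 in pup 1, which is 14661 and 12757 CPM and a mean of 13709 CPM ± 1346 (SD, n = 2). It was high in both pups and ranked 13 of all genes in each.

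Mir26a-2, a source of miR-26a, had 93 counts in pup 2 and 69 in pup 1. These are 25.4 CPM (exact 95% Poisson interval 20.5 to 31.1) and 21.5 CPM (16.7 to 27.1), with a mean of 23.4 CPM ± 2.80 (SD, n = 2). The intervals of the pups overlapped.

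Mir26a-1, the other source of miR-26a, had 32 counts in pup 2 and 23 in pup 1. These are 8.74 CPM (5.98 to 12.3) and 7.15 CPM (4.53 to 10.7), with a mean of 7.95 CPM ± 1.12 (SD, n = 2). Here too the intervals overlapped. Intervals cover only the counting error of reads within a library. No molecular identifiers are stated, so copies of the same molecule could not be told apart from separate molecules.

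No count lay on the opposite strand of any miR-26 gene in either pup. Together the family held 1.47% of own-strand counts in pup 2 (exact 95% binomial interval 1.46 to 1.48%) and 1.28% in pup 1 (1.27 to 1.29%), a mean of 1.37% ± 0.135 (SD, n = 2). The Mir26a genes held 0.232% of the family's counts in pup 2 and 0.224% in pup 1. These shares leave out reads within miR-26a-5p, so they do not measure the miR-26 miRNAs as a whole.

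**Figure D3:**
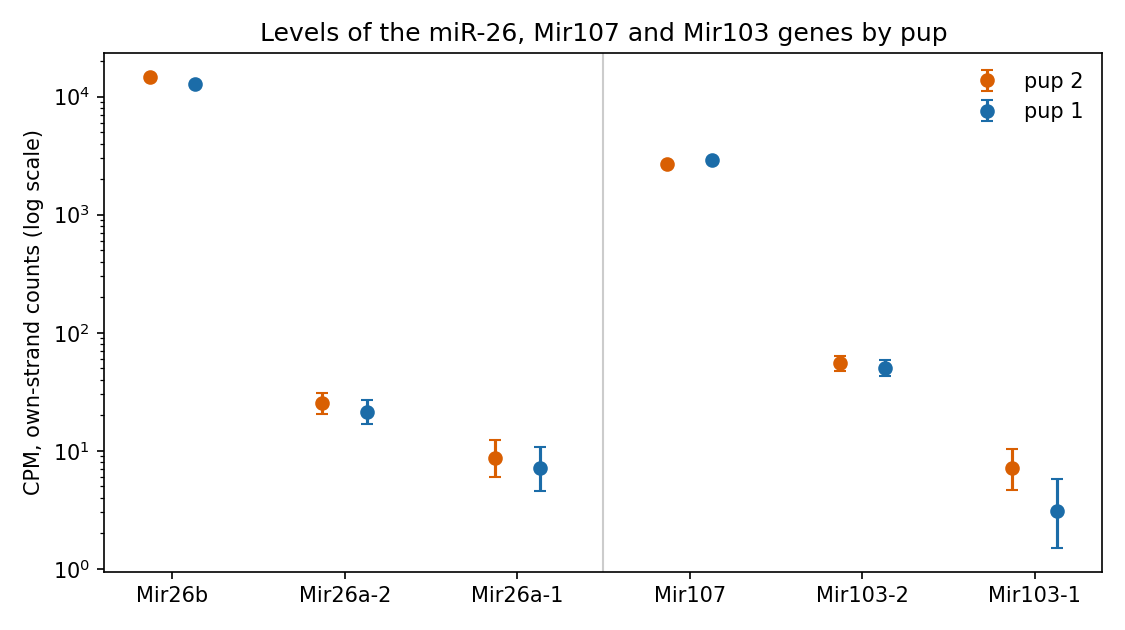
Points are the CPM of own-strand counts (log axis) of the miR-26 genes and, right of the line, the Mir103 and Mir107 genes, in pup 2 (orange) and pup 1 (blue). Bars are exact 95% Poisson intervals, hidden by the points for Mir26b and Mir107. In both sets 1 gene lies far above the others, at 14661 and 12757 CPM for Mir26b and at 2668 and 2926 CPM for Mir107.

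The order of levels was Mir26b, Mir26a-2, Mir26a-1 in both pups. Within a library the total cancels, so depth does not enter the ratio of 2 genes. The ratios are of uniquely placed reads. Reads within miR-26a-5p are left out of the Mir26a counts, whereas Mir26b shares no window, so the folds do not compare miR-26b with miR-26a. Mir26b had 429 times the summed counts of the Mir26a genes in pup 2 (exact 95% interval 360.3 to 516) and 446 times in pup 1 (364 to 553). Per base of precursor these folds were 439 and 456. Mir26a-2 had 2.91 times the counts of Mir26a-1 in pup 2 (1.93 to 4.49) and 3.0 times in pup 1 (1.85 to 5.04), or 3.11 and 3.21 times per base of precursor. On the scale of mean log2(CPM + 1), Mir26b exceeded Mir26a-2 by 9.13, against a limit of 0.55, and Mir26a-2 exceeded Mir26a-1 by 1.45, against a limit of 0.70. The limit is the 95% range of a difference given by the SD between pups, pooled over genes of like abundance, so both steps were larger than that spread. A bias common to the libraries, such as the loss of reads that fit several places, is outside it.

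Among all genes, 680 had a count in either pup and 352 had at least 10 counts in both. By mean CPM Mir26a-2 ranked 270 (268 in pup 2 and 272 in pup 1) and Mir26a-1 ranked 305 (303 and 309). The rank of Mir26b was 13 also when CPM was divided by the length of the precursor, with 16128 CPM per 100 bases.

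**Figure D4:**
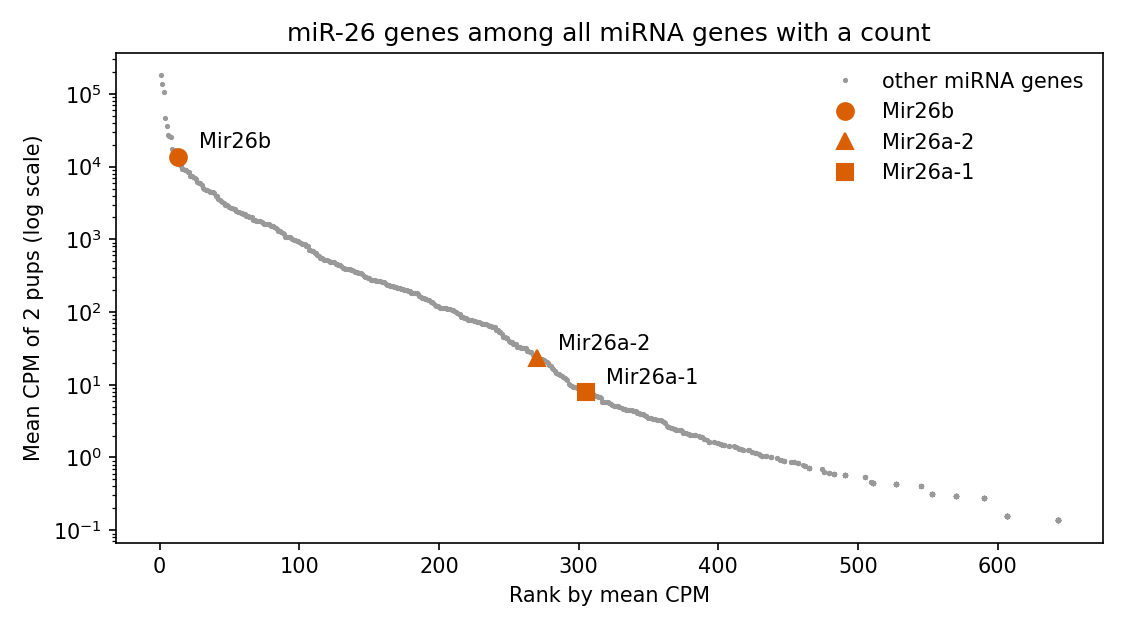
The mean CPM of the pups (log axis) is plotted against the rank of each of the 680 miRNA genes with a count. The miR-26 genes are in orange, with Mir26b at rank 13, Mir26a-2 at rank 270 and Mir26a-1 at rank 305.

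The genes closest to Mir26b in level, over these 2 libraries, were Mir130a, Mir137 and Mir100 above it and Mir127, Mir149 and Mir99b below it. Mir130a had 14869 CPM in pup 2 against 15336 CPM in pup 1, and Mir26b stood at 0.906 times its level. Mir137, a miRNA of neurons, had 17125 and 15027 CPM, and Mir100 had 16393 and 17175 CPM. On the CPM scale, Mir26b did not differ from these 3 genes beyond the pooled spread, whose limit was 0.32 in log2. They were also the only genes within that limit on this scale. The limit takes genes as independent, although all were counted in the same 2 libraries. Within each pup, all 3 lay above Mir26b, which had 14661 CPM in pup 2 and 12757 CPM in pup 1. Mir127, from the imprinted Dlk1-Dio3 region, had 10110 CPM in pup 2 against 11562 CPM in pup 1, and Mir26b lay above it by 1.26-fold, which exceeded the limit. Mir26b also exceeded Mir149 (1.34-fold) and Mir99b (1.47-fold) beyond the limit. Each of these 6 calls changed when CPM was divided by precursor length, because the precursor of Mir26b, with 85 bases, was longer than those of the 6 neighbours, with 64 to 80 bases. The reads come from RNA shorter than 30 bases. Whether their counts grow with precursor length was not tested, so the scale per base is a check and not a correction. Per base of precursor, Mir26b lay below Mir130a, Mir137 and Mir100 by more than the limit, with log2 differences of -0.55, -0.45 and -0.38. On that scale it lay within the limit of Mir127 (0.06), Mir149 (0.06) and Mir99b (0.28).

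Many miRNA genes sit in introns of protein-coding genes on the same strand. Of 654 such genes in the tables, 132 had at least 10 counts in both pups, with a median of 183 CPM among these. Mir26b was the fifth highest of them, after Mir10b, Mirlet7g, Mir335 and Mir30e. Both Mir26a genes lay below this median.

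Mature sequences were available for 916 genes of the tables, which sets the Mir26a genes beside others of their kind. In 53 of these, as in Mir26a-2 and Mir26a-1, another gene makes 1 of the 2 mature miRNAs as well. Of the 53, 9 reached 1000 CPM or more and 31 lay under 100 CPM. Mir26a-2 was at place 30 and Mir26a-1 at place 33 by mean CPM. Of the 829 genes with no shared mature sequence, such as Mir26b, 80 reached 1000 CPM or more and 660 lay under 100 CPM. Of the 34 genes with every mature sequence shared, 0 reached 1000 CPM and 30 lay under 100 CPM. The classes differ in size. Over all genes of a class, the 53 had a larger share at 1000 CPM or more, and a smaller share under 100 CPM, than the 829. Among genes with at least 10 counts in both pups, the medians of these classes ran the other way. They were 106 CPM for 41 of the 53 genes and 213 CPM for 272 of the 829. For 7 of the 34 genes with every mature sequence shared, the median was 162 CPM.

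The Mir103 and Mir107 genes offer the same layout. Mir103-1 and Mir103-2 carry the same miR-103-3p, Mir107 makes a near relative, and all 3 sit in introns of the Pank genes of coenzyme A synthesis. The sequences, from RefSeq with the seed in capitals, differed by the substitution G22C.

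mmu-miR-103-3p: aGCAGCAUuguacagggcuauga

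mmu-miR-107-3p: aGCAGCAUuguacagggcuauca

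Unlike Mir26b, Mir107 shared 22-base windows with its relatives, in a run of 24 bases. Reads that lie within this run fit more than 1 gene, so they are left out of the counts of Mir107 too. The run stops before the last bases of miR-107-3p, where G22C lies, so a read of the whole miR-107-3p is not within it. The whole of miR-26a-5p, in contrast, lies in the run shared by the Mir26a genes. Mir107 had 9767 counts in pup 2 and 9412 in pup 1, or 2668 and 2926 CPM. Mir103-2 had 202 and 162 counts, and Mir103-1 had 26 and 10 counts. Mir107 thus had 42.8 times the summed counts of the Mir103 genes in pup 2 (exact 95% interval 37.6 to 49.1) and 54.7 times in pup 1 (47.1 to 64.0). In each pup the interval for Mir26b over the Mir26a genes lay above that for Mir107 over the Mir103 genes. The loss of reads that fit several places differs between the sets, and its part in this contrast was not tested. Mir26b itself had 5.49 times the counts of Mir107 in pup 2 (5.38 to 5.62) and 4.36 times in pup 1 (4.26 to 4.46). The Mir26a genes had 0.548 times the counts of the Mir103 genes in pup 2 (0.437 to 0.685) and 0.535 times in pup 1 (0.411 to 0.693).

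The pups were compared by an exact two-sided binomial test on every gene with at least 10 counts summed, which compares 2 libraries and covers counting error only. Of 413 genes tested, 169 (40.9%) were called different at an adjusted p under 0.05 with 106 (25.7%) higher and 63 lower in pup 2. The split depends on the scaling, with 93 higher and 78 lower under TMM or DESeq2 scaling. Of the miR-26 genes, 1 of 3 was called. Mir26b was higher in pup 2 by 1.15-fold, a log2 ratio of 0.20 (exact 95% interval 0.18 to 0.22; exact binomial test, adjusted p = 5.3e-99). Such a call is common at its depth, since 19 of the 20 genes within 2-fold of its level, Mir26b included, were called. The log2 ratios of these 20 genes had a median of 0.12 and an SD of 0.16, and 3 of them (15.0%) exceeded that of Mir26b. Over the 352 detected genes, those of few counts included, the median was 0.04 and the SD 0.37, and 107 (30.4%) exceeded it.

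Mir26a-2 had a log2 ratio of 0.24 (-0.22 to 0.71; adjusted p = 0.457 in the exact binomial test) and Mir26a-1 one of 0.28 (-0.53 to 1.13; adjusted p = 0.659). Neither passed the test. Both intervals contain the ratio of Mir26b and also 0, so at this depth these genes could not be told apart from it or from no difference.

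**Figure D5:**
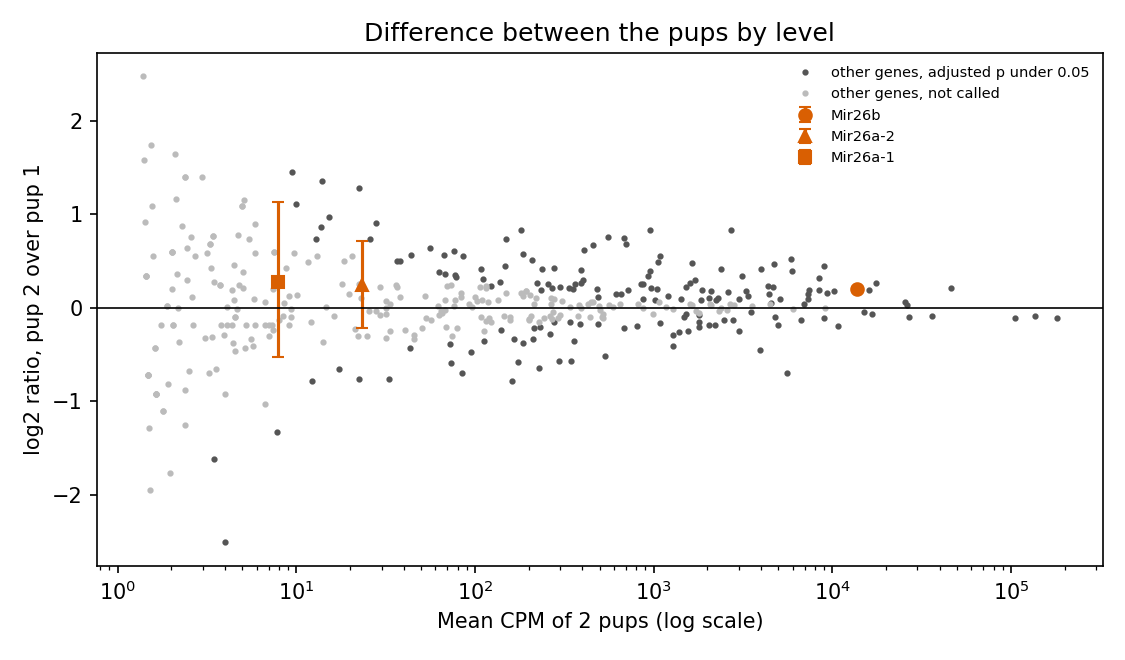
The log2 ratio of pup 2 over pup 1 is plotted against mean CPM (log axis) for the 413 genes tested, with called genes in dark grey and the others in pale grey. The miR-26 genes are in orange with exact 95% intervals. All 3 ratios lie above 0, at 0.20 for Mir26b, 0.24 for Mir26a-2 and 0.28 for Mir26a-1, and the intervals of the Mir26a genes cross 0.

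The labelled tissue was checked by marker miRNA genes. All 11 measured neuronal markers had counts, 8 of them at least 10 in both pups, and their sum was 24265 CPM in pup 2 and 21124 CPM in pup 1. The fold between the pups was 1.15 for this sum, of which Mir137 held 70.6% in pup 2 and 71.1% in pup 1, and 1.17 for the other 10 genes. The sum of the oligodendrocyte markers had a fold of 1.20, of blood and immune markers 1.17 and of epithelial markers 1.09. The fold was 1.07 for vessel wall and mesenchyme markers and 0.934 for the endothelial marker Mir126a. Within these lists, the top gene had a lower fold than the sum of the others. Mir338 had 1.15 against 1.25, Mir150 of blood 0.943 against 1.35, Mir203 of epithelium 1.05 against 1.74, and Mir143 of the vessel wall 1.03 against 1.13. Mir126a alone had 26007 CPM in pup 2 and 27838 CPM in pup 1, above the neuronal sum in each pup. Vessel wall and mesenchyme markers summed to 11371 and 10663 CPM, and oligodendrocyte markers to 2220 and 1854 CPM. Blood and immune markers summed to 575 and 490 CPM, and epithelial markers to 514 and 471 CPM. Skeletal muscle markers summed to 105 CPM in pup 2 and 70.6 CPM in pup 1, with Mir1a-1, Mir133a-1 and Mir133a-2 at 0. The hepatocyte marker Mir122 had 64.2 and 104 CPM. The part of these cell types in the level of Mir26b was not tested. Reads that fit several places are left out of these sums too. A count of 0 for a gene with copies, such as Mir133a-1 and Mir133a-2, therefore does not show that its miRNA was absent. Neuronal markers with copies, such as Mir128-1 and Mir128-2, can lose reads in the same way. In whole tissue, fewer cells of a type and less RNA per cell cannot be told apart.

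Other miRNA genes tied to REST and its phosphatases were taken as a list of 8, of which 7 were measured and Mir9-1 had no row of its own. Of 6 tested, 2 were called and both were higher in pup 2. Over all tested genes, 40.9% were called in either direction and 25.7% were called higher in pup 2. The median log2 ratio of the list was 0.28, against 0.04 over all genes tested. Mir132, which REST is known to repress in neurons, had 6396 counts in pup 2 and 4688 in pup 1, or 1747 and 1458 CPM, with a log2 ratio of 0.26 (exact binomial test, adjusted p = 2.7e-20). Mir212, its neighbour on chromosome 11, had 382 and 309 counts and was not called (log2 ratio 0.12, adjusted p = 0.440).

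The miR-124 of neurons is known from the chick neural tube to repress the phosphatase Ctdsp1. Mir124a-1 had 50 counts in pup 2 and 20 in pup 1, with a log2 ratio of 1.11 (exact binomial test, adjusted p = 0.0074). Mir124a-3 had 10 and 7 counts and Mir124a-2 had 3 and 4. Mir9-3, a source of miR-9, which targets Rest, had 1715 and 1447 counts (log2 ratio 0.06, adjusted p = 0.409 in the exact binomial test), and Mir9-2 had 7 and 3. As with miR-26a, miR-9 and miR-124 are each made by several genes, and the counts of each gene leave out reads that fit more than 1 place. Mir26b had more own-strand counts than all 7 measured genes of this list together in each pup. That sum leaves out the same reads, so it does not measure miR-9 or miR-124.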

How the data were processed

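Small RNA libraries from 2 neural tubes were analysed. Values were the raw read counts that the authors deposited for each miRNA gene, split by strand. Per the accompanying text files deposited by them, build mm10 with GENCODE M4 was used. For the aligner and counter, nothing is stated in the labels or files. Read classes that name no gene stayed out of totals; own-strand totals took 50.8% of reads in pup 2 and 50.6% in pup 1. CPM scaled each own-strand total to 1000000, with no length correction unless stated. Symbols and hosts came from GENCODE M21 (same build; 1894 of 1973 identifiers matched). RefSeq mature sequences matched 916 genes by symbol.

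Pups were compared across all genes by an exact binomial test, Benjamini-Hochberg adjusted. The test was tried on simulated Poisson counts, which hold counting error but no spread between animals or libraries. Log2 ratios had 0.5 added to each count, their intervals nothing. Pooled SDs used 4 classes of abundance. The members and lists were chosen with earlier results of these data known. Named genes were the members, 3 neighbours in rank on each side, and the REST and Pank lists; Mir10b, Mirlet7g, Mir335, Mir30e, miR-6932-3p and miR-7039-3p were named after their values or sequences were seen.

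Alternatives were TMM (edgeR 4.0.16) and DESeq2 1.42.0 scaling, other totals, strands, filters and pseudocounts, and leaving out each pup. Software was RNAfold 2.7.2, scipy 1.17.1, numpy 2.4.6, pandas 2.3.3, Biopython 1.88, matplotlib 3.10.9, Python 3.11.15 and R 4.3.3.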

Additional observations from a re-analysis of the deposited data

How the results depend on the processing

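With all reads as the denominator, the mean levels were 6945 CPM (Mir26b), 11.9 CPM (Mir26a-2) and 4.03 CPM (Mir26a-1). Without the most abundant gene in the total they were 16723, 28.6 and 9.69 CPM. Both follow from the other denominator. The other alternatives moved no mean by more than its SD, which leaving out 1 of 2 pups cannot do by construction. The log2 ratio of Mir26b lay between 0.16 (TMM or DESeq2 scaling) and 0.20 and stayed called, with adjusted p from 1.31e-62 to 3.99e-99 (exact binomial test). Those of Mir26a-2 and Mir26a-1 stayed positive and uncalled. Calls over all genes numbered 160 to 180. The rank of Mir26b and the sharing of stretches of 20 or 18 bases did not move; the 6 calls against its neighbours in rank each changed per precursor length, by construction of the longer precursor. The scale per precursor length was added after seeing the data. No paired analysis between conditions was possible because the 2 pups form 1 group. Genes were paired by pup only in the ratios within a library, and the limits for differences in level ignore that pairing. With 1 library per pup, no variation between libraries could be estimated apart from the pups, and the 23 to 93 counts per pup limit the Mir26a genes.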
